A study of Mus musculus with 12 samples.

Results

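The report covers 52 genes of the urea cycle and of amino acid breakdown, among 26228 genes with a symbol on a mouse Agilent 1-colour expression array. A gene was found by its name, or by the current symbol of its Entrez number, in the array files, and all 52 were present, on 79 spots. RNA came from female B6C3F1/Nctr mice, untreated or given acrylamide at 0.7 mM, with 3 arrays per dose from liver and 3 per dose from lung. The tissue entry reads liver on every array, but 6 arrays carry lung in title and source name and were taken as lung. The sources used here give neither the route nor the length of exposure, and they do not say whether a group's 3 arrays stand for 3 animals. A p-value below therefore reflects only how far these arrays scatter, which may be technical.

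Amino acids that are not needed for protein are stripped of their nitrogen, mostly by aminotransferases, and their carbon skeletons are burned or turned into glucose. The freed ammonia is toxic, and the urea cycle of the liver joins it to bicarbonate and aspartate and releases it as urea. Hepatocytes are the main site of this chemistry, including the breakdown of tyrosine, tryptophan and histidine and the methionine cycle, while the branched-chain amino acids are degraded in many tissues. Acrylamide is a small reactive amide that is converted in part to the epoxide glycidamide.

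A level is given below as log2 intensity minus the 75th percentile of the same array, so a negative level lies below that percentile, and levels of different genes come from different probes and are not compared. Values are listed in the order untreated liver 1, 3 and 4, acrylamide liver 27, 29 and 30, untreated lung 4, 5 and 6, and acrylamide lung 28, 29 and 30, the numbers being those in the titles. The 75th percentile ranged from 294.5, on acrylamide liver 30, to 621.5 in liver, and from 839.4 to 1376 in lung. A spot counted as above background when it was brighter than 95% of its array's negative control spots.

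The tissue of each array was checked with marker genes. Hepatocyte markers were lower in untreated lung than in untreated liver for 10 of 10 genes, and alveolar type 2 markers were higher in lung for 8 of 8 genes (limma, Benjamini-Hochberg adjusted p under 0.05). Some arrays carried transcripts of the other tissue. The albumin gene Alb read 3.11, 3.10 and 4.21 on the untreated lung arrays and 4.22, 4.11 and 3.05 on the acrylamide lung arrays, and all 10 hepatocyte markers were above background on all 6 lung arrays. Their summed level was 6.49 to 6.64 in untreated and 6.31 to 6.78 in acrylamide lung. The surfactant gene Sftpc read -7.45, -5.83 and -6.13 on the untreated liver arrays and 2.63, -0.65 and -5.60 on the acrylamide liver arrays. The summed level of all 8 alveolar type 2 markers was 5.85 to 6.08 in untreated and 5.85 to 6.18 in acrylamide liver. Of the 7 tested in liver, 5 were above 0 with acrylamide and 2 below. Their medians relative to the control mean were 0.36, 0.72 and 0.55 on liver 27, 29 and 30. The summed level of the 4 club cell markers was -1.66 to -1.24 in untreated and -1.96 to 3.07 in acrylamide liver, where 2 of the 4 were above background on all 6 arrays. The hepatocyte markers were raised on lung 6, 28 and 29. Sftpc and the summed club cell markers were raised on liver 27 and 29. Sftpb, another surfactant gene, read -7.44, -7.76 and -7.34 on the untreated liver arrays and -0.47, -2.73 and -5.67 on the acrylamide liver arrays. Sftpb was above background on 2 of the 6 liver arrays. The summed alveolar type 2 markers were not raised, but their sum could hardly show such a rise. On every liver array that sum, at 5.85 or more, lay far above Sftpc at its highest, 2.63.

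The comparison of the tissues asked how far this gene set is a liver programme. All 52 genes were lower in lung than in liver, and on every gene the 6 lung arrays lay below all 6 liver arrays. Among all genes tested, 45.1% had untreated lung arrays wholly below the liver arrays and 44.6% had this with acrylamide. In the untreated arrays 51 of the 52 genes passed the test as lower in lung, against 42.4% of the 22441 genes tested (limma, Benjamini-Hochberg adjusted p under 0.05). With acrylamide 52 of 52 passed, against 41.5% of the 22115 genes tested. The median difference over the 52 genes was -7.22 log2 units in untreated and -7.31 in acrylamide arrays, beside -0.28 and -0.25 over all genes tested. Without the arrays on which markers of the other tissue were raised, the median was -7.22 in untreated arrays, from 2 lung and 3 liver arrays. In acrylamide arrays it was -7.73, from 1 lung and 1 liver array, both numbered 30. The lung arrays kept still carried hepatocyte transcripts. In bulk tissue, fewer cells of a type and less RNA per cell cannot be told apart. The titles of liver and lung arrays also start with different numbers, whose meaning is not stated. An effect of whatever these numbers stand for cannot be told apart from that of tissue.

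**Figure D1:**
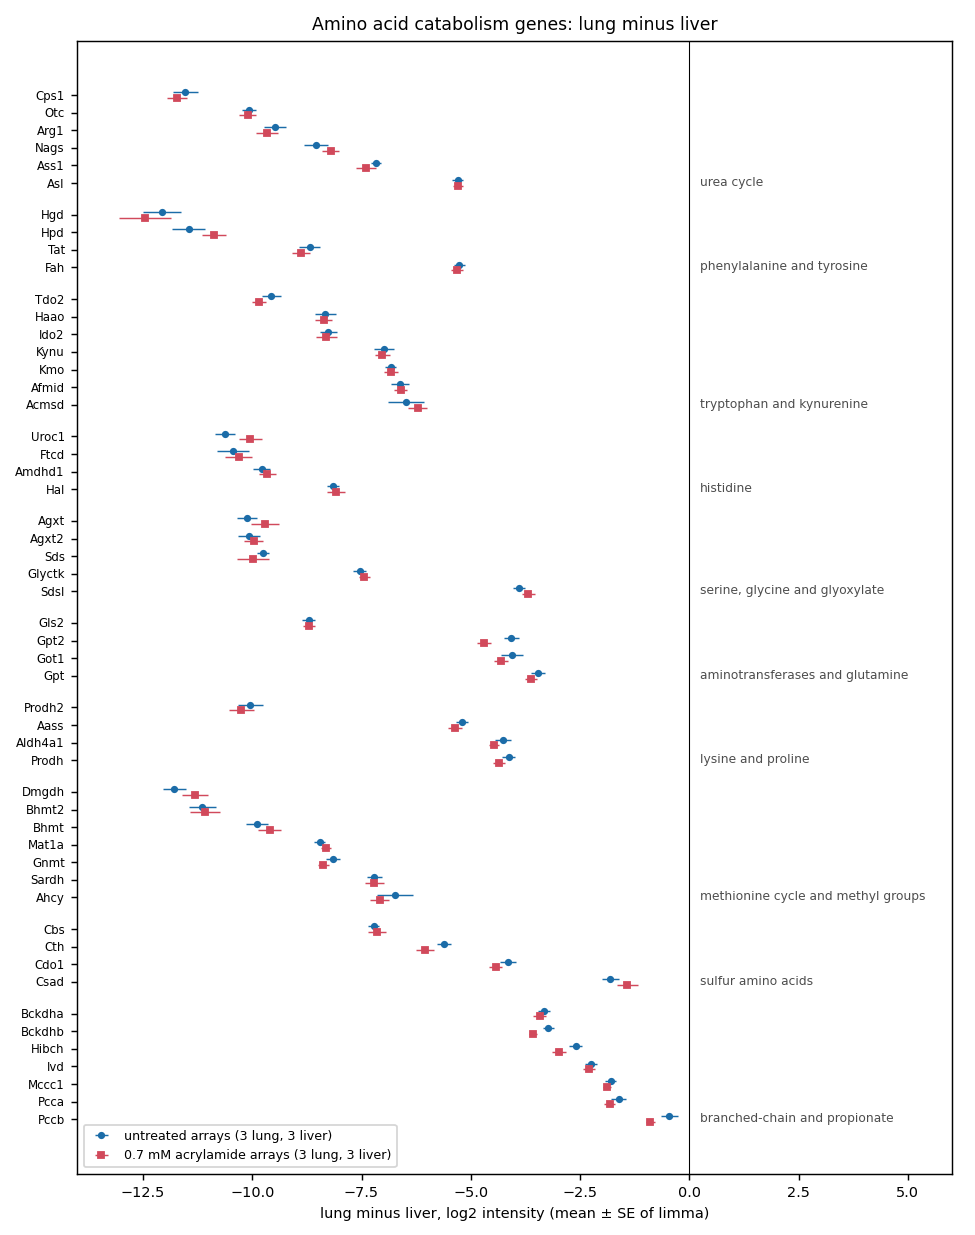
Difference between lung and liver in log2 intensity (horizontal axis, mean ± SE of limma) for each of the 52 genes (vertical axis, grouped by pathway), in untreated arrays (blue circles) and acrylamide arrays (red squares), 3 lung against 3 liver arrays each. Every point lies left of 0, from Hgd at -12.06 and -12.45 to Pccb at -0.45 and -0.89.

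The 52 genes fell into pathways of unlike steepness. Medians in the untreated arrays were -10.12 for the 4 histidine genes, -10.07 for the 4 phenylalanine and tyrosine genes, -9.75 for the 5 serine, glycine and glyoxylate genes and -9.01 for the 6 urea cycle genes. The 7 genes of the methionine cycle and methyl groups had a median of -8.45, and the 7 tryptophan and kynurenine genes one of -6.98. Sulfur amino acids (4 genes, -4.88), lysine and proline (4 genes, -4.73) and aminotransferases with glutaminase (4 genes, -4.06) lay between these and the 7 branched-chain and propionate genes, at -2.26. Despite the low levels in lung, 51 of the 52 genes were above background on all 12 arrays. On every lung array 48 exceeded the background limit at least 4-fold. That limit was low, at intensities of 2.35 to 3.24 in lung. Of the 22252 genes tested in lung, 20657 were above it on all 6 lung arrays, as were the 10 hepatocyte markers. Whether lung cells express these genes was not tested.

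All 6 urea cycle genes were lower in lung, with the largest differences at Cps1 and Otc, the mitochondrial steps that fix ammonia and make citrulline. Nags, which makes the N-acetylglutamate that switches on the first enzyme, read 2.27, 1.86 and 2.42 in untreated liver and -6.55, -5.85 and -6.69 in untreated lung, a difference of -8.54 ± 0.27 (SE). Cps1, the carbamoyl phosphate synthetase that fixes ammonia, read 5.10, 4.96 and 4.96 against -6.25, -7.17 and -6.16, a difference of -11.53 ± 0.28. Otc, which joins carbamoyl phosphate to ornithine, read 5.69, 5.86 and 5.70 against -4.56, -4.29 and -4.14, a difference of -10.08 ± 0.16. For each of these genes the 3 arrays of a tissue lay far closer together than the tissues did. Ass1, which condenses citrulline with aspartate, read 8.28, 8.28 and 8.31 against 1.12, 1.07 and 1.2, a difference of -7.16 ± 0.12. Asl, which splits argininosuccinate into arginine and fumarate, read 5.01, 4.93 and 5.05 against -0.43, -0.22 and -0.26, a difference of -5.30 ± 0.13. Arg1, the arginase that releases urea, read 5.72, 5.79 and 5.62 against -4.05, -4.08 and -3.21, a difference of -9.48 ± 0.26. As folds these are 2966 for Cps1, 1082 for Otc, 716 for Arg1, 373 for Nags, 143 for Ass1 and 39.4 for Asl, with adjusted p between 2.64e-07 and 1.24e-06 (limma). Ass1 and Asl, the pair that also serves arginine synthesis outside the liver, thus had the smallest differences of the cycle. Cps1 and Nags were dim in untreated lung, at intensities of 7.29 to 16.95 and 11.73 to 18.20, against background limits of 2.35 to 3.24. The sizes of their differences and folds therefore depend partly on how background was handled, which is not stated. In the acrylamide arrays the differences were -8.21 for Nags, -11.72 for Cps1, -10.10 for Otc, -7.40 for Ass1, -5.29 for Asl and -9.66 for Arg1.

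**Figure D2:**
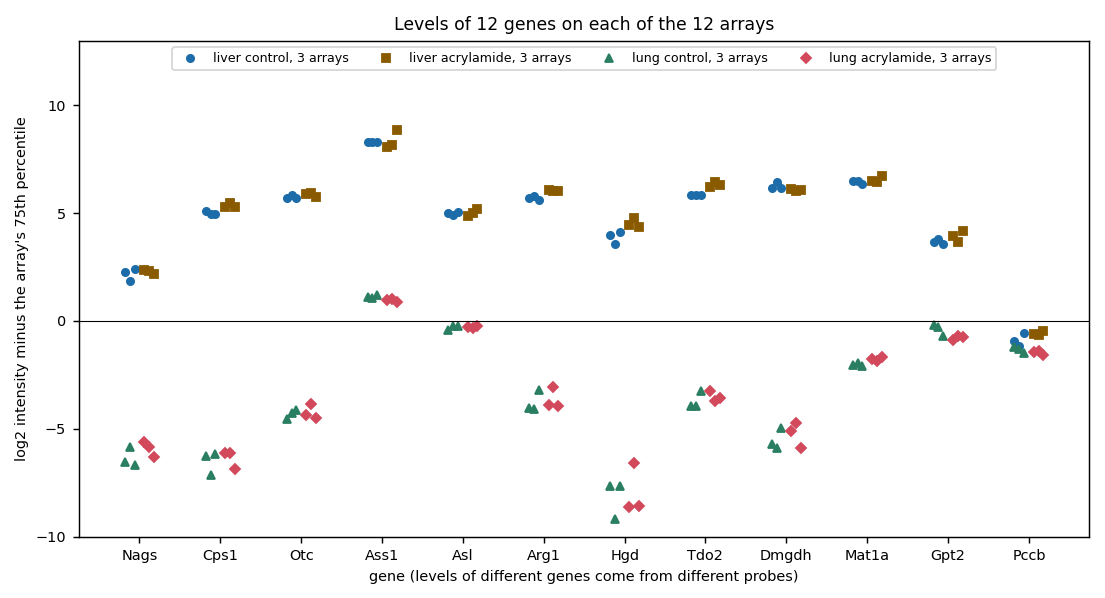
Level of 12 genes (horizontal axis) on each of the 12 arrays, as log2 intensity minus the 75th percentile of the array (vertical axis). Each point is 1 array, with 3 arrays per group: liver control in blue, liver acrylamide in brown, lung control in green and lung acrylamide in red. For Pccb the lung points, from -1.57 to -1.21, sit just below the liver points, from -1.16 to -0.48, while Cps1 leaves a wide gap.

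The 6 steepest differences in untreated arrays belonged to enzymes of tyrosine and histidine breakdown, to Dmgdh and Bhmt2 of the methionine cycle and methyl groups, and to Cps1. Hgd, the homogentisate dioxygenase of tyrosine breakdown, read 4.0, 3.58 and 4.13 in untreated liver and -7.64, -9.17 and -7.66 in untreated lung. Its difference was -12.06 ± 0.44 (SE; limma adjusted p = 2.08e-06). Hgd was above background on 2 of 3 untreated and 2 of 3 acrylamide lung arrays, so the size of its difference is set partly by spots at the background. Without untreated lung 5, where it was below background, the difference was -11.55. Dmgdh, the mitochondrial dimethylglycine dehydrogenase, read 6.16, 6.44 and 6.19 against -5.69, -5.90 and -4.97, a difference of -11.78 ± 0.26 (adjusted p = 4.5e-07). Hpd, which makes homogentisate, read 6.46, 6.45 and 6.63 against -4.79, -5.80 and -4.24, a difference of -11.46 ± 0.38 (adjusted p = 1.49e-06). On both Hgd and Hpd, untreated lung 5 was the lowest of the lung controls. Bhmt2, a methyltransferase that remakes methionine, read 6.18, 6.42 and 6.24 against -4.89, -5.46 and -4.24, a difference of -11.14 ± 0.31 (adjusted p = 8.01e-07). Uroc1, the urocanate hydratase of histidine breakdown, read 5.15, 5.25 and 5.17 against -5.76, -5.59 and -4.95, a difference of -10.62 ± 0.23 (adjusted p = 4.36e-07). In the acrylamide arrays the differences were -12.45 for Hgd, -11.31 for Dmgdh, -10.88 for Hpd, -11.08 for Bhmt2 and -10.05 for Uroc1, and Ftcd, at -10.31, took the place of Uroc1 among the 6 steepest.

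The remaining genes filled the range down to the branched-chain group. In tyrosine breakdown, the aminotransferase Tat that opens the path and the hydrolase Fah that closes it completed the 4 genes, with Fah the least steep at -5.26. In tryptophan breakdown the opening dioxygenase Tdo2 was the steepest of 7 at -9.57, and Acmsd, which turns the path away from NAD synthesis, the least steep at -6.49. The histidine genes Hal, Uroc1, Amdhd1 and Ftcd, which act in sequence, lay between -10.62 and -8.15. Among serine, glycine and glyoxylate genes the serine dehydratase paralogue Sdsl, at -3.90, stood apart from Sds, Agxt, Agxt2 and Glyctk, of which the steepest was at -10.12. Gls2, the liver glutaminase, was at -8.71, whereas the aminotransferases Got1, Gpt and Gpt2 reached -3.46 at the least. Prodh2, which oxidises hydroxyproline, was at -10.05, while Aass (lysine), Prodh and Aldh4a1 (proline) were shallower, the least of them at -4.13. Of the methionine genes Dmgdh, Bhmt2, Bhmt, Mat1a, Gnmt, Sardh and Ahcy the least steep was Ahcy, the S-adenosylhomocysteine hydrolase, at -6.73. Of the sulfur genes, Cbs, which commits homocysteine to cysteine, was the steepest at -7.22, ahead of Cth, Cdo1 and Csad.

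The smallest differences belonged to Csad, the decarboxylase of taurine synthesis, and to branched-chain and propionate genes. Hibch, of valine breakdown, differed by -2.60 ± 0.16, Ivd, of leucine breakdown, by -2.26 ± 0.13, and Csad by -1.80 ± 0.20. Mccc1, also of leucine breakdown, differed by -1.80 ± 0.12, and Pcca, a subunit of propionyl-CoA carboxylase, by -1.62 ± 0.17. Pccb, the partner subunit of Pcca, read -0.92, -1.16 and -0.55 in untreated liver and -1.21, -1.31 and -1.47 in untreated lung. The groups did not overlap, but the difference of -0.45 ± 0.19 missed the threshold (limma adjusted p = 0.0682, 95% interval -0.92 to 0.01). It passed in 4 of the alternatives, at -0.60 and adjusted p = 0.0295 without untreated liver 3. With acrylamide Pccb read -0.61, -0.64 and -0.48 in liver and -1.45, -1.39 and -1.57 in lung, and the difference of -0.89 ± 0.11 passed (adjusted p = 0.000627).

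For 24 genes more than 1 spot was tested in the untreated comparison, and in 0 of them did the spots differ in sign. Between acrylamide and control the spots of a gene differed in sign for 6 of 23 genes in liver and 12 of 22 in lung, so the signs of the acrylamide estimates below often rest on the spot used. Between tissues the sizes could differ widely, though: Glyctk, the glycerate kinase, gave -7.54 at the spot used and -1.26 at its other spot, Ido2, a tryptophan dioxygenase, -8.26 and -2.46, and Amdhd1 -9.79 and -5.37. With every spot counted, the median was -6.58. Quantile scaling moved the median of all genes by 0.29 and median scaling by 0.20 in the untreated comparison, and the median of the 52 genes became -6.81 and -7.01.

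RefSeq promoter windows (GRCm38.p6, 250 bases before to 50 after the gene start) were at hand for 40 of the 52 genes. Those not matched were Arg1, Asl, Cdo1, Cps1, Cth, Gls2, Gpt, Ido2, Kynu, Mat1a, Sds and Sdsl. The arrays measured no promoter state, so what follows describes sequence alone. The 4 sequences below are the start of Hgd, the steepest gene, that of Otc in the urea cycle, that of Pccb, the least steep, and the stretch between Bhmt2 and Dmgdh. Bhmt2 and Dmgdh start back to back. Otc, at -10.08, is not an extreme of the tissue difference: Agxt, at -10.12, and others of the 40 genes were steeper. The genes Bhmt, Bhmt2 and Dmgdh are neighbours on chromosome 13, as are Hal and Amdhd1 on chromosome 10 and Sdsl and Sds on chromosome 5. Letters run 5′ to 3′, CG dinucleotides are in capitals, and all but the shared stretch are the 250 bases before the start on the gene's own strand.
Hgd, chr16:37579903-37580152, plus strand: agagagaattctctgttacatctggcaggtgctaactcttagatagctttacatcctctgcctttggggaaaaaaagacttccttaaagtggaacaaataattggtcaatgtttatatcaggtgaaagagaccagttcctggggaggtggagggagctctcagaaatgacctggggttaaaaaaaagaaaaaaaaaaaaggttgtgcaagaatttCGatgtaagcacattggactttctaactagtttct
Otc, chrX:10252055-10252304, plus strand: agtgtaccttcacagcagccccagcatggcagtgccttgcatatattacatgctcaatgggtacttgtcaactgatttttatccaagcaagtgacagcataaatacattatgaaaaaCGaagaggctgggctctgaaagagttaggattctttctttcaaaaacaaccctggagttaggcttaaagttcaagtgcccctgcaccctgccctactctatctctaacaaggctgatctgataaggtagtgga
Pccb, chr9:101034885-101035134, minus strand: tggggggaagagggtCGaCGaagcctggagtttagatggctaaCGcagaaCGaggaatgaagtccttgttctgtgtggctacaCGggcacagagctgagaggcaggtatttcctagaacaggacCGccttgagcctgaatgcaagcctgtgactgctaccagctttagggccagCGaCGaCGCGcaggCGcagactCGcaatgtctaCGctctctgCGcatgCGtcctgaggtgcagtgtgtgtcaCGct
Between Bhmt2 (minus strand) and Dmgdh (plus strand), chr13:93674303-93674435, written on the plus strand: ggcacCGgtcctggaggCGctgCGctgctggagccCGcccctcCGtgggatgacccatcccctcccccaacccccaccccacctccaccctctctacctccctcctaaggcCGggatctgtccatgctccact

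The printed stretches held 1 CG in Hgd, 1 in Otc and 16 in Pccb, and 6 in the 133 bases between Bhmt2 and Dmgdh. Over the 300-base windows the ratio of observed to expected CG was 0.162 for Hgd, 0.0682 for Otc, 0 for Uroc1 and 0.933 for Pccb. Bhmt2 and Dmgdh, at 0.664 and 0.753, combined CG-rich windows with differences below -11. The 18 windows of genes with an untreated difference below -8 had a median ratio of 0.280, and 2 of them reached 0.6. The median was 0.630 in the 14 windows of genes between -8 and -4, of which 8 reached 0.6, and 0.562 in the 8 windows above -4, of which 4 did. These bounds were set after the differences were seen. Over the 40 genes the ratio and the difference had a Spearman rho of 0.44 and a Pearson r of 0.47, as a description across genes that share arrays and, for 1 pair, a promoter. Of all 27025 windows 36.51% reached 0.6, and of the 40 windows 35% did, while the median ratio was 0.389 over all windows and 0.433 over the 40.

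**Figure D3:**
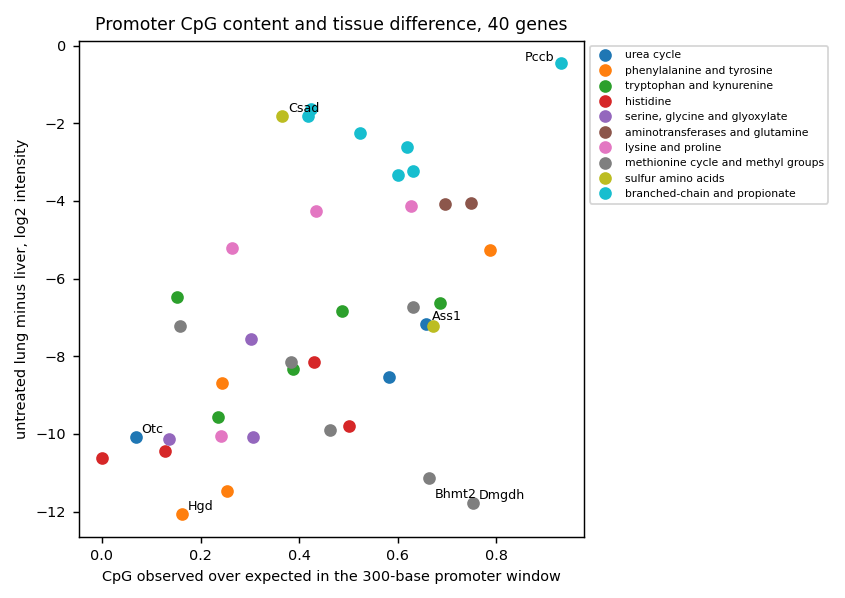
Ratio of observed to expected CG in the 300-base promoter window (horizontal axis) against the untreated difference between lung and liver in log2 intensity (vertical axis) for the 40 genes with a window, each point 1 gene, coloured by pathway. Hgd and Otc lie low on the left, Pccb top right, and Bhmt2 and Dmgdh low on the right, at ratios of 0.664 and 0.753.

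Short motifs were searched on both strands of the 40 windows. The TATA box letters TATAAA were in 5 windows, those of Agxt2, Ftcd, Hal, Hgd and Tdo2, or 12.5% against 14.2% of all windows, and all 5 were among the 18 below -8. TTGCNNAA, a form of the C/EBP site, was in 4 of the 40 windows (Aass, Hal, Hgd and Prodh2) and in 2903 of all 27025. CAAAGTCCA, a core of the HNF4 site, was in 1 window, that of Agxt2, against 0.474% of all windows.

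The second question was what acrylamide did to these genes in liver. None of the 52 genes passed the test, as none of the 21169 genes tested did (0%, limma, smallest adjusted p over the 52 genes 0.784). The estimates were small and leaned upward: 38 of 52 were above 0, against 46.9% of all genes, with a median of 0.12 against -0.02. At an unadjusted p under 0.05 there were 6 genes, all higher with acrylamide, against 6.04% of all genes. The arrays of the groups did not overlap for 7 genes that were higher, against 5.45% of all genes, and for 2 that were lower, against 6.74%. Relative to the control mean, the median of the 52 genes was -0.05, -0.02 and 0.07 on the controls and -0.02, 0.09 and 0.28 on acrylamide liver 27, 29 and 30, so the highest value belonged to the array with the lowest intensity. Hepatocyte markers had medians of -0.30, -0.37 and 0.22 on those 3 arrays, and 1 of 10 was above 0. Of other lists, 8 of 8 macrophage markers were above 0, with array medians of 0.64, 0.42 and 0.25. All 5 stellate cell markers were below 0, with -0.18, -0.32 and -0.48. Erythroid markers were above 0 for 4 of 4 genes and B cell markers below 0 for 4 of 4. Endothelial, cholangiocyte and adipocyte markers had both signs. Of 16 clock genes 6 had an unadjusted p under 0.05. The part of lung transcripts, of intensity, of these markers and of the clock genes in the result was not tested. Without liver 27 and 29, liver 30 was the only acrylamide array. The median was then 0.28, with 47 of 52 genes above 0. Without liver 30 it was 0.057, with 31 above 0.

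The 6 urea cycle estimates were all above 0, between 0.02 and 0.34. Cps1 read 5.27, 5.48 and 5.30 with acrylamide, all above its 3 untreated values, a difference of 0.34 ± 0.14 (unadjusted p = 0.0451, adjusted p = 0.784, limma). Arg1 read 6.07, 6.02 and 6.03, again above all untreated values, a difference of 0.33 ± 0.13 (unadjusted p = 0.0369). The other 4 overlapped with their controls. Otc read 5.87, 5.95 and 5.77 (0.11 ± 0.13), and Nags read 2.36, 2.33 and 2.19 (0.11 ± 0.18). Ass1 read 8.07, 8.17 and 8.85 (0.07 ± 0.23), so that arrays 27 and 29 lay below and array 30 above the controls. Asl read 4.87, 4.99 and 5.20 (0.02 ± 0.14).

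The largest positive estimates in liver came from tryptophan, tyrosine, methionine and branched-chain breakdown. Tdo2, the rate-limiting step of tryptophan breakdown in liver, read 5.86, 5.82 and 5.84 in controls and 6.23, 6.44 and 6.3 with acrylamide. Its difference of 0.48 ± 0.13, a fold of 1.4, had the lowest unadjusted p of the set, 0.00934 (adjusted p = 0.784, limma). Leaving out any 1 array gave 0.42 to 0.53. Hgd, whose control values are given above, read 4.43, 4.76 and 4.34, a difference of 0.61 ± 0.21 (unadjusted p = 0.0242) without overlap. Ahcy read 1.84, 1.0 and 2.27 against 2.67, 2.58 and 1.96, a difference of 0.70 ± 0.37, the largest of the 52, but the groups overlapped. Gnmt, which uses up surplus S-adenosylmethionine, read 7.40, 7.14 and 7.40 against 7.55, 7.72 and 7.83, a difference of 0.39 ± 0.15 without overlap. Hibch read 4.37, 4.13 and 4.50 against 4.96, 4.84 and 4.49 (0.43 ± 0.19), where array 30 fell among the controls. Pcca read 1.89, 1.39 and 1.66 against 2.21, 2.0 and 1.88 (0.38 ± 0.18), where array 30 again did. Without liver 27 and 29, and so from liver 30 alone, the estimate was 0.25 for Ahcy, 0.16 for Hibch and 0.23 for Pcca. Tdo2 was then at 0.46, Hgd at 0.44 and Gnmt at 0.52. Leaving out untreated liver 3 took Ahcy to 0.35.

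**Figure D4:**
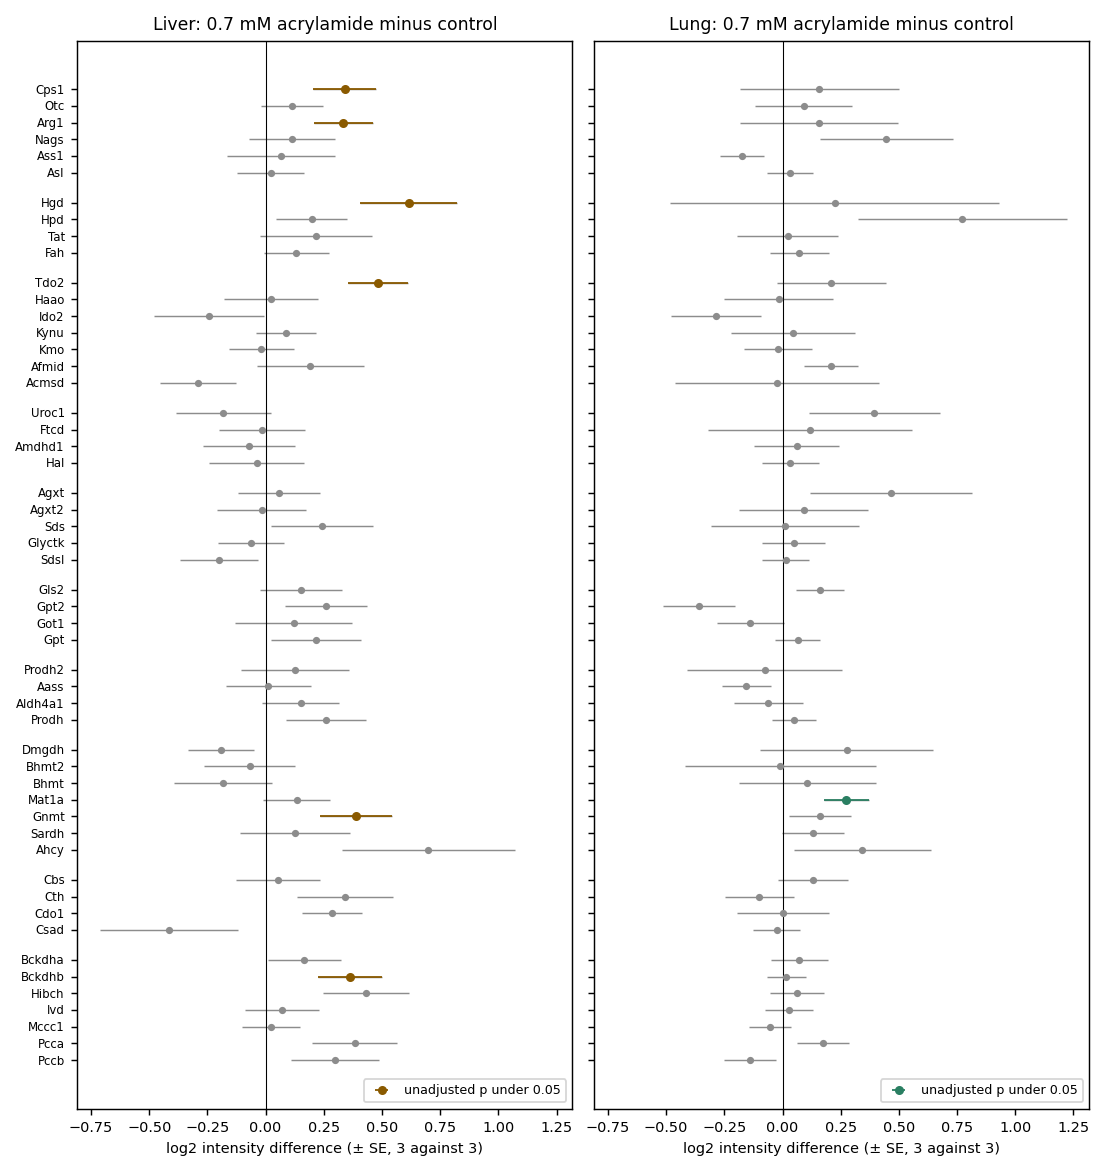
Difference between acrylamide and control arrays in log2 intensity (horizontal axis, ± SE of limma, 3 against 3 arrays) for each of the 52 genes (vertical axis, in the order of the tissue plot), in liver (left) and lung (right). Coloured points have an unadjusted p under 0.05, 6 in liver and 1 in lung, and none passed after adjustment.

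The negative estimates in liver were smaller in number. Csad read 2.54, 3.19 and 2.64 in controls and 2.71, 2.58 and 1.84 with acrylamide, a difference of -0.41 ± 0.30 with array 30 the lowest. Acmsd read -0.88, -0.85 and -0.54 against -1.22, -1.0 and -0.92, a difference of -0.29 ± 0.16 without overlap, and Dmgdh read 6.11, 6.05 and 6.06 (-0.19 ± 0.14), also without overlap. Ido2 read 4.41, 4.62 and 4.67 against 4.0, 4.18 and 4.79 (-0.24 ± 0.24). For Ido2, arrays 27 and 29 were below the controls and array 30 above them. Sdsl read 2.97, 3.12 and 3.20 against 2.90, 2.67 and 3.12 (-0.20 ± 0.17). Bhmt, the betaine methyltransferase, read 8.38, 8.52 and 8.46 against 8.10, 8.02 and 8.69 (-0.18 ± 0.21), with the same split between arrays as Ido2. From acrylamide array 30 alone, without liver 27 and 29, the estimates of Ido2, Sdsl and Bhmt were above 0, at 0.23, 0.019 and 0.24.

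By pathway, the 7 branched-chain and propionate genes were all above 0, with a median of 0.30, and Bckdhb, the beta subunit of the branched-chain dehydrogenase, had an unadjusted p of 0.0377 (0.36 ± 0.14). Relative to the control mean the median of this group was 0.27, 0.24 and 0.25 on arrays 27, 29 and 30 and 0.01, -0.13 and 0.09 on the controls. The 4 histidine genes were all below 0 at the spots used, with a median of -0.05. Their array medians of -0.37, -0.07 and 0.25 ran from below to above the controls. At their other spots, both above background on all 6 liver arrays, Uroc1 gave 0.25 and Amdhd1 -0.13. Cdo1, the cysteine dioxygenase, was the remaining gene whose arrays did not overlap, at 0.28 ± 0.13.

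In lung, too, none of the 52 genes passed, and none of the 22252 genes tested did (0%, limma, smallest adjusted p over the 52 genes 0.995). Of the 52 estimates 37 were above 0, against 48.3% of all genes, with a median of 0.05 against -0.01, but with median scaling 29 were. Mat1a alone had an unadjusted p under 0.05, against 4.95% of all genes. The arrays did not overlap for 3 genes that were higher, Mat1a, Afmid and Gls2, against 4.08% of all genes, and for 1 that was lower, Ass1, against 6.85%. Of 17 clock genes 10 had an unadjusted p under 0.05, and their part in the result was not tested.

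Mat1a, which makes S-adenosylmethionine in liver, read -2.04, -1.95 and -2.08 in untreated and -1.75, -1.84 and -1.67 in acrylamide lung, a difference of 0.27 ± 0.10 (unadjusted p = 0.03, adjusted p = 0.995, limma). Afmid, the formamidase of tryptophan breakdown, differed by 0.21 ± 0.12, and Gls2 by 0.16 ± 0.10. Ass1 read 0.98, 1.01 and 0.88 with acrylamide, all below its untreated values, a difference of -0.17 ± 0.09 (unadjusted p = 0.111). The other urea cycle genes overlapped. Nags read -5.60, -5.84 and -6.30 (0.45 ± 0.28), Cps1 -6.11, -6.14 and -6.86 (0.16 ± 0.34) and Otc -4.36, -3.85 and -4.50 (0.09 ± 0.21). Asl read -0.27, -0.31 and -0.23 (0.03 ± 0.10), and Arg1 -3.88, -3.06 and -3.92 (0.16 ± 0.34). Without acrylamide lung 29 the estimate of Arg1 was -0.12 and that of Otc -0.10.

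The largest estimates in lung had wide errors. Hpd read -4.27, -3.64 and -4.60 with acrylamide, a difference of 0.77 ± 0.45, and untreated lung 5, at -5.80, set most of it: the difference was 0.35 without that array. Agxt, which turns glyoxylate to glycine, read -2.19, -2.55 and -1.72 against -1.73, -1.09 and -2.24 (0.46 ± 0.35). Uroc1 read -4.77, -4.89 and -5.46 (0.39 ± 0.28), with array 30 among the controls. Ahcy read -5.65, -4.87 and -4.55 against -4.77, -4.80 and -4.47 (0.34 ± 0.29), and Dmgdh read -5.12, -4.72 and -5.88 (0.28 ± 0.37). All of these overlapped with their controls. Leaving out acrylamide lung 29 took Agxt to 0.17 and Dmgdh to 0.016, and leaving out untreated lung 4 took Ahcy to 0.028 and Uroc1 to 0.23. Without lung 6, 28 and 29, and so with acrylamide array 30 alone, the estimate was 0.13 for Agxt and -0.086 for Dmgdh. It was 0.22 for Uroc1, 0.79 for Ahcy and 0.69 for Hpd.

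On the negative side Gpt2, the mitochondrial alanine aminotransferase, read -0.20, -0.30 and -0.70 in untreated and -0.87, -0.68 and -0.73 in acrylamide lung, a difference of -0.36 ± 0.16 (unadjusted p = 0.06). Untreated lung 6 fell among the acrylamide arrays. Ido2 read -3.70, -4.01 and -3.39 against -4.05, -3.76 and -4.13 (-0.29 ± 0.19), and its sign turned to 0.37 when its spots were averaged. Aass, the first enzyme of lysine breakdown, read 0.48, 0.41 and 0.27 against 0.34, 0.16 and 0.19 (-0.16 ± 0.11). Got1 read 2.16, 1.93 and 1.66 against 1.78, 1.81 and 1.74 (-0.14 ± 0.14). Pccb differed by -0.14 ± 0.11. On all 5 of these genes the acrylamide and control arrays overlapped.

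Among lung arrays, the genes with the steepest tissue difference spread most. The 24 genes with an untreated tissue difference below -8 had medians, relative to the control mean, of -0.04, -0.30 and 0.42 on untreated lung 4, 5 and 6 and of 0.09, 0.42 and -0.16 on acrylamide lung 28, 29 and 30. The 18 genes between -8 and -4 stayed between -0.04 and 0.05, and the 10 genes above -4 between -0.06 and 0.05. Hepatocyte markers had medians of -0.15, -0.44 and 0.70 on the untreated and 0.86, 0.68 and -0.22 on the acrylamide arrays. Lung 6 and 29 were thus high in both lists, and lung 28 in the markers. The part of these transcripts in the levels of the 52 genes was not tested. Leaving out acrylamide lung 30 gave a median over the 52 genes of 0.14, and leaving out untreated lung 6 one of 0.15. Without lung 6, 28 and 29, lung 30 was the only acrylamide array, and the median was 0.0044, with 28 of 52 above 0.

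**Figure D5:**
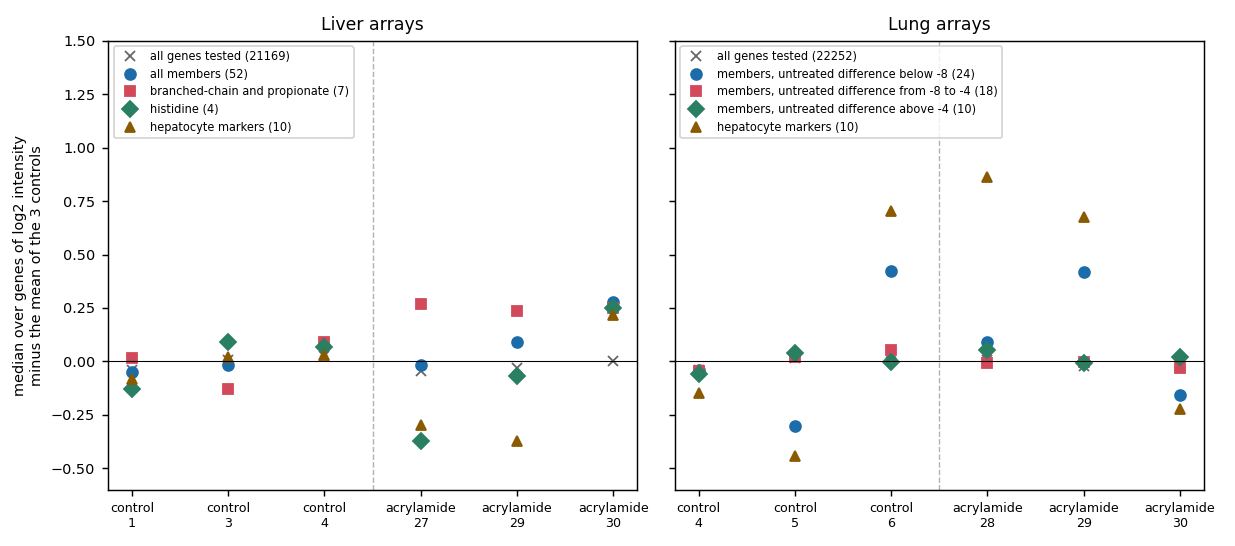
Median over genes of log2 intensity minus the mean of the 3 control arrays of the tissue (vertical axis) on each array (horizontal axis), for liver (left) and lung (right), with controls left and acrylamide arrays right of the dashed line. Hepatocyte markers (brown triangles) and, in lung, the 24 genes below -8 (blue circles) reached 0.70 and 0.42 on untreated lung 6, while all genes tested (grey crosses) stayed near 0.

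The difference between the tissues in their response was tested directly as the lung effect minus the liver effect. None of the 52 genes passed, and none of the 23300 genes tested did (0%, limma, smallest adjusted p over the 52 genes 0.994). Of the 52 values 21 were above 0, against 49.8% of all genes, with a median of -0.04. At an unadjusted p under 0.05 there were 2 genes, against 4.45%: Gpt2 at -0.62 ± 0.24 (unadjusted p = 0.0258) and Bckdhb at -0.35 ± 0.14 (unadjusted p = 0.0369). The value of Gpt2 rests on 1 of its 2 spots: the other, above background on all 12 arrays, gave 0.037 in liver and 0.0011 in lung, against 0.26 and -0.36 at the spot used. Gpt2 was 3.66, 3.80 and 3.57 in untreated and 3.96, 3.67 and 4.18 in acrylamide liver. Cth (-0.44 ± 0.26), Pccb (-0.44 ± 0.22), Hgd (-0.39 ± 0.80), Hibch (-0.37 ± 0.22) and Ahcy (-0.36 ± 0.51) were the next lowest. Uroc1 (0.58 ± 0.37), Hpd (0.58 ± 0.51), Dmgdh (0.47 ± 0.42), Agxt (0.41 ± 0.41), Csad (0.39 ± 0.33) and Nags (0.33 ± 0.36) were the highest. Cth, which makes cysteine from cystathionine, read 5.12, 4.70 and 5.03 against 4.99, 5.57 and 5.32 in liver and -0.63, -0.80 and -0.54 against -1.01, -0.65 and -0.60 in lung. The urea cycle values were -0.24 ± 0.26 for Ass1, -0.18 ± 0.39 for Cps1, -0.18 ± 0.38 for Arg1, -0.02 ± 0.25 for Otc and 0.01 ± 0.16 for Asl. Over the 52 genes 28 estimates were above 0 in both tissues and 5 below 0 in both. As 38 were above 0 in liver and 37 in lung, these counts by themselves do not show a shared response. The same counts over all genes were not taken.

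A further 77 genes of these pathways that are not among the 52 were measured in the same fits. In the untreated arrays 61 of the 77 were lower in lung, against 42.4% of all genes, 10 were higher, against 32% of all genes, and 6 did not pass, with a median of -2.66 (limma, Benjamini-Hochberg). Among the lowest were Hao1, a glycolate oxidase, at -11.34 ± 0.15, Aadat, an aminotransferase of lysine and kynurenine, at -10.63 ± 0.16, and Qprt, of NAD synthesis, at -8.72 ± 0.18. The highest were genes of synthesis or of extrahepatic forms: Asns, the asparagine synthetase, at 4.85 ± 0.17, Phgdh and Psat1, which make serine, at 4.39 ± 0.22 and 4.33 ± 0.22, and Arg2, the second arginase, at 3.39 ± 0.94. These 7 passed with adjusted p of at most 0.0153. With acrylamide 60 of the 77 were lower and 10 higher, against 41.5% and 31.3% of all genes, and the same 7 genes were again near the ends: Hao1 (-10.98), Aadat (-10.95), Qprt (-8.91), Phgdh (5.18), Asns (4.97), Arg2 (4.17) and Psat1 (4.01).

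None of these other genes passed for acrylamide in either tissue or for the difference in response. In liver 40 of 76 tested were above 0, against 46.9% of all genes, with 5 at an unadjusted p under 0.05, against 6.04%. The highest were Amt, of the glycine cleavage system, at 0.57 ± 0.19, Dld at 0.51 ± 0.29, Tha1 at 0.50 ± 0.16 and Acadsb at 0.46 ± 0.19. Among the lowest were Dao at -1.04 ± 1.41, Phgdh at -0.76 ± 0.20 and Slc25a2 at -0.65 ± 0.41. In lung 46 of 77 were above 0, against 48.3% of all genes, with 2 at an unadjusted p under 0.05, against 4.95%. Among the highest there were Amt at 0.73 ± 0.38, Bcat1, a branched-chain aminotransferase, at 0.50 ± 0.27 and Hoga1 at 0.36 ± 0.10. The lowest in lung were Dhtkd1 at -0.66 ± 0.40, Dbt, the branched-chain dehydrogenase transacylase, at -0.33 ± 0.12, Mthfd1 at -0.25 ± 0.15 and Aldh18a1 at -0.20 ± 0.13. The lung effect minus the liver effect was among the highest for Dao (1.14 ± 1.58), Phgdh (0.79 ± 0.27) and Arg2 (0.77 ± 1.24), and lowest for Dld (-0.51 ± 0.33), Acadsb (-0.45 ± 0.26), Psat1 (-0.32 ± 0.30) and Aadat (-0.32 ± 0.47).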

How the data were processed

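RNA labelled with 1 dye was hybridised to 12 arrays. The submitters' processing notes name Agilent Feature Extraction 10.7. The authors deposited 1 linear intensity per spot and a matrix of the same intensity multiplied by 1 factor per array. No source used here says if background was subtracted from it. Of 62976 spots, 1319 control spots were left out. From the deposited intensity, log2 values were computed and centred on the 75th percentile of each array. A fit kept spots above background in 3 or more of its arrays, and each gene took its spot of highest mean.

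Each comparison was fitted with limma 3.58.1 in R 4.3.3 (lmFit, eBayes) on the arrays of its groups, and the difference in response on all 12 arrays. P-values were adjusted over all genes by Benjamini-Hochberg, with a threshold of 0.05. The fits were tested on simulated data, 50 changed genes per fold size. The liver fit (21169 genes) called 0% at 1.5-fold, 26% at 2-fold and 66% at 4-fold, and the lung fit (22252 genes) 18%, 44% and 76%.

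The 52 genes, the gene lists and the tests were chosen with earlier results of these data known. Full values were given for the 6 urea cycle genes, the 6 largest estimates in each direction (the steepest and the least steep between tissues, where no gene was above 0), genes not passing between tissues, and the 4 largest in each direction among the other pathway genes. Some genes that this rule selects are not reported here. Any further gene was named with its value already seen. Alternatives were other scalings, the deposited matrix, filters, spot rules, a trend, array weights, the row code in the titles, a joint fit of the 12 arrays, a block for the title number and leaving out each array. The row code was used because rows hold both groups: in liver, row 1 held arrays 1, 3, 27 and 30, and row 2 arrays 4 and 29, and in lung, row 1 held arrays 5, 28 and 30, and row 2 arrays 4, 6 and 29. Leaving out the arrays on which markers of the other tissue were raised was added after seeing the data. Promoter windows were RefSeq's.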

Additional observations from a re-analysis of the deposited data

How the results depend on the processing

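The counts of the 52 genes that passed held in both acrylamide comparisons and in their difference: 0 under every alternative fitted. In liver 2 of all genes passed with 1 fit of all 12 arrays, and leaving out 1 array gave 0 to 1. The difference in response had 139 genes with array weights and 0 to 136 when 1 array was left out, with the most without acrylamide liver 30. The median of the 52 genes in liver was 0.012 within row 2 and 0.057 to 0.20 with 1 array left out. Without liver 27 and 29, with liver 30 as the only acrylamide array, the median was 0.28. In lung the median was 0.0023 to 0.15 with 1 array left out, and for the difference in response -0.14 to 0.025. Between untreated tissues it was -6.81 with quantile scaling, -7.01 with median scaling, -6.93 with the mean of spots, -6.58 with every spot and -7.30 to -7.18 with 1 array left out. Between acrylamide tissues it was -6.93, -7.13, -7.01 and -6.60 in the same order, and -7.43 to -7.24 with 1 array left out. Without the arrays on which markers of the other tissue were raised it was -7.73, from 1 lung and 1 liver array.

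Some estimates that had not passed changed sign, among them lung Nags, lung Ido2 and the difference in response of Hgd. In liver, array weights gave Ass1 -0.13 and Asl -0.056, and leaving out 1 array gave Ass1 -0.18 to 0.21, Asl -0.067 to 0.095 and Nags -0.050 to 0.23. In lung, Asl was -0.0084 with median scaling and -0.0088 with array weights, Ido2 0.37 with the mean of spots, and Otc -0.14, Asl -0.027 and Nags -0.11 within row 1. Leaving out 1 lung array gave Otc -0.10 to 0.22, Arg1 -0.12 to 0.44, Asl -0.032 to 0.072 and Cps1 -0.16 to 0.40. For the difference in response, Asl was -0.012 with quantile and -0.018 with median scaling, and Hgd 0.0090 with array weights. With the row as a block, Cps1 was 0.036, Otc 0.064, Asl -0.020, Arg1 0.037 and Hgd 0.21. Leaving out 1 array gave Otc -0.22 to 0.11, Asl -0.063 to 0.099, Ass1 -0.39 to 0.0018, Cps1 -0.50 to 0.064 and Arg1 -0.46 to 0.11. The cause was not tested.

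The title numbers 4, 29 and 30 occur in both tissues. Deviations of liver and lung arrays of the same number had correlations of 0.01, -0.02 and -0.16 over 23300 genes. Arrays of the same dose but different numbers had correlations of -0.074 to 0.13. Arrays of 1 animal need not deviate together, so these values cannot tell whether a shared number means a shared animal. With the number as a replicate block, the untreated difference of Pccb was -0.44 and passed (limma adjusted p = 0.0306), as it did with array weights, with 1 fit of all 12 arrays and without untreated liver 3. The replicate block left the median at -7.21 and called 0 genes for the difference in response.

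In simulated data, changes of 1.5-fold were called for 0% of genes in the liver fit and 18% in the lung fit. Changes of the size estimated for acrylamide were thus mostly not called there with 3 arrays a group. The simulation changed genes at several fold sizes together and drew the noise of each gene and array independently. Neither needs to hold for the real arrays, so the share of real changes that would be called may differ. Acrylamide liver 30 had 34287 spots above background, against 46450 to 51099 on the other arrays, and a background limit of 16.8, against 2.35 to 4.45.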

Other observations

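Amino acid carriers and regulators of these pathways, which the results above do not describe, also separated the tissues. Of 16 amino acid transporters 12 were lower and 2 higher in untreated lung, against 42.4% and 32% of all genes (limma, Benjamini-Hochberg adjusted p under 0.05), with a median of -2.92. The glutamine carrier Slc38a3 differed by -10.93 ± 0.21, Slc6a13 by -10.23 ± 0.23 and the betaine carrier Slc6a12 by -9.96 ± 0.29. Slc38a5, another glutamine carrier, was higher in lung by 6.41 ± 0.26, and Slc3a2, the heavy chain shared by several exchangers, by 1.06 ± 0.15. Of 20 regulators 15 were lower in untreated lung and 0 higher, with 5 not passing. The liver transcription factors Hnf4a (-10.94 ± 0.28) and Creb3l3 (-10.75 ± 0.36) were among the lowest. Cebpb (0.40 ± 0.27), the glucocorticoid receptor gene Nr3c1 (-0.13 ± 0.14) and Foxa2 (0.12 ± 0.18) were among those that did not pass.

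None of the 16 transporters or 20 regulators passed for acrylamide in either tissue or for the difference in response. Slc1a4, a carrier of neutral amino acids, had an estimate of 0.74 ± 0.38 in liver and of -0.38 ± 0.09 in lung, and the lung effect minus the liver effect was -1.12 ± 0.42 (limma, unadjusted p = 0.025, adjusted p = 0.994). Slc25a22, a mitochondrial glutamate carrier, had an estimate of 0.56 ± 0.17 in liver and a value of -0.61 ± 0.20 for that difference.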
